A study of Anopheles coluzzii and Anopheles merus with 32 samples.

Results

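Older larvae of Anopheles coluzzii, a freshwater malaria mosquito, were compared after 6 h in saltwater (SW) and 6 h in freshwater (FW). The 8 libraries of this comparison, 4 from SW and 4 from FW, were chosen by their labels from 32 libraries in all. The larvae had been reared in FW, and the exposures began 66 h after hatching. Each library was made from polyA RNA of a pool of 35 to 50 whole larvae. The salinity of the SW is not stated in the labels, and the titles of the FW libraries carry the letters DI. The other 24 libraries form 6 groups of 4: An. coluzzii exposed from 18 h after hatching to FW or SW, and Anopheles merus, a species that breeds in brackish water, exposed from 18 h or 66 h to FW or SW, also for 6 h. The labels do not state whether different pools came from different cultures. The p-values below therefore measure the spread between libraries, part of which may be technical.

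Mosquito larvae in fresh water gain water and lose ions, and they counter this by taking up ions through the anal papillae and by reabsorbing ions in the rectum before urine leaves the body. In saline water the gradient turns, and larvae that survive there must excrete salt. In anopheline larvae the rectum is a main site of this regulation, and the Malpighian tubules supply the primary urine. These are background facts, and no gene below is tied to them, because the deposited values carry AGAP identifiers without names and 0 of the 11025 identifiers were found in the reference gene table used here. The 28 gene lists planned for ion transport, stress, cuticle, metabolism and other functions therefore matched no gene, and none was counted. For the same reason the libraries could not be checked against markers of larval tissues, and each library is a whole-body mixture in which fewer cells of a type and less RNA per cell cannot be told apart.

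Expression is given in CPM, a gene's reads set against the size of its library, with the authors' scaling between libraries, and log2 fold changes are differences of mean log2(CPM + 1), SW minus FW. The FW libraries held 8721261, 4207326, 5906064 and 11865110 reads (replicates 1 to 4, numbered in accession order), and the SW libraries held 5732121, 16453290, 12581808 and 10638662 reads. Across genes, the SW libraries correlated with each other at r = 0.981 to 0.987. FW replicate 2, the shallowest of the 8 libraries, correlated with the other FW libraries at 0.965 to 0.972, while FW replicates 3 and 4 correlated at 0.991. The median standard deviation of a gene between replicates was 0.202 in FW and 0.169 in SW on the log2 scale. The labels for species and age could be checked from the values. Together, 9 genes with no reads in any An. merus library and at least 1 CPM in An. coluzzii at 18 h summed to 11.3 to 19.4 CPM in the 8 libraries. A set of 108 genes that were at least 8-fold higher at 66 h than at 18 h in FW An. merus had a mean log2 level of 5.60 to 6.16 in the 8 libraries, against 1.86 to 2.29 in the An. coluzzii libraries from 18 h.

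SW changed the level of 235 genes in the older An. coluzzii larvae, 2.24% of the 10505 genes tested. Of these, 142 rose (1.35% of genes tested) and 93 fell (0.885%), by limma with an adjusted p below 0.05. The changes were mostly small. The median log2 fold change was 0.65 among the genes that rose and -0.67 among those that fell, with quartiles of 0.49 to 0.88 and of -0.85 to -0.52. At least 2-fold changes were found for 37 genes (0.352% of genes tested), of which 24 rose and 13 fell, and 87 of the 235 changed less than 1.5-fold. On the log2(CPM + 1) scale, which understates the changes of low genes, a single gene, AGAP028216, changed more than 4-fold. AGAP001610 was just under 4-fold on that scale, and its log2 fold change was 2.39 with edgeR. Over all genes tested the median log2 fold change was 0.00, with quartiles of -0.15 to 0.16. The 4 SW and 4 FW libraries did not overlap for 1177 genes (11.2% of genes tested), and 210 of the 235 called genes were among them.

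The number of calls and their direction depended on the set of libraries that set the error. Fitted on the 8 libraries alone, limma called 161 genes (1.53% of genes tested), 75 higher and 86 lower, of which 109 were among the 235. The share of calls that were higher was thus 60.4% with the spread of all 32 libraries and 46.6% with the spread of these 8. On whole reads recovered from the values of the 16 An. coluzzii libraries, edgeR called 98 genes and DESeq2 called 221. Limma fitted on the values of the same 16 libraries called 87. Without SW replicate 2, the deepest of the 8 libraries, the fit of all the other libraries called 110 genes, and without SW replicate 3 it called 118. Calls that passed in the fit of all libraries, without each of the 8 libraries in turn, on the 8 libraries alone, and with edgeR and DESeq2 numbered 55, of which 32 rose and 23 fell. The median log2 fold changes of these 55 were 0.86 and -0.79.

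**Figure D1:**
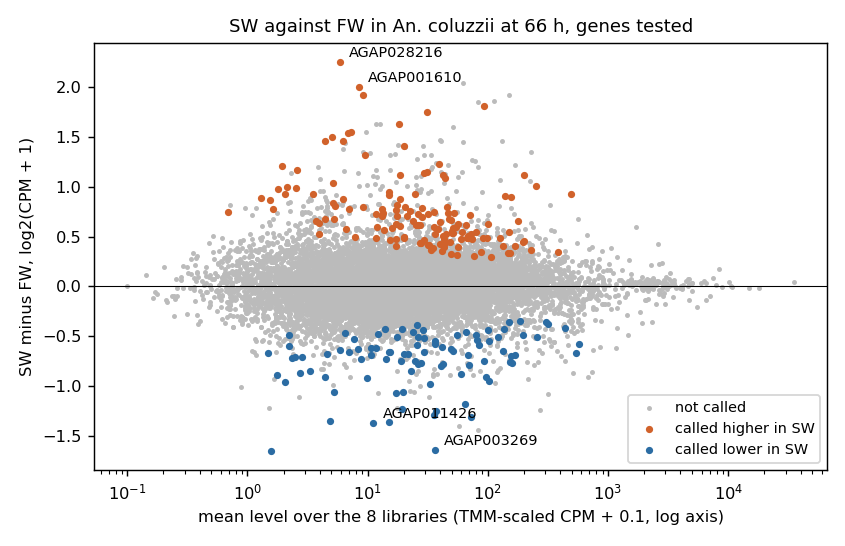
Each point is 1 of the 10505 genes, with its mean level (CPM + 0.1) on a log axis and its log2 fold change, SW minus FW, in An. coluzzii at 66 h. Coloured points are the 142 genes called higher and the 93 called lower, which lie mostly within 1 log2 unit of 0.

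Calls were spread over low and high levels of expression. The share called was 1.59% of the 2015 genes under 5 CPM, 1.87% of 3311 genes at 5 to 20 CPM, 2.82% of 3683 genes at 20 to 100 CPM and 2.93% of 1196 genes at 100 to 500 CPM. Of the 300 genes at 500 CPM or more, 2 were called (0.667%), and both fell. The median size of the called changes went from 0.88 log2 units under 5 CPM to 0.49 at 100 to 500 CPM.

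The 2 genes with the highest fold changes and the 2 with the lowest, among called genes with at least 5 CPM in 1 group and no overlap between libraries, passed in each of those fits. AGAP028216 was at 0.943, 0.506, 3.06 and 1.28 CPM in the FW libraries and at 9.84, 7.08, 10.6 and 12.8 CPM in the SW libraries. The lowest SW library was above the highest FW library, and the group means were 1.45 ± 1.12 and 10.1 ± 2.35 CPM (SD, n = 4). Its log2 fold change was 2.25 ± 0.19 (SE), with a limma adjusted p of 2.1e-08, or 0.0052 on the 8 libraries alone. The fold change rested on 41 reads in FW and 417 in SW. Group means were 0.0854 CPM or less at 18 h in both species and 0.0572 CPM in An. merus FW at 66 h. Those libraries enter the estimate of error in the fit of all libraries, so the smaller p-value is likely too small. In An. merus at 66 h the gene also rose, to 2.42 CPM in SW, on 3 reads in FW and 65 in SW. Its log2 fold change there was 1.68 ± 0.19 (limma adjusted p = 2.7e-08, from the same fit). AGAP001610 was at 3.66, 3.29, 1.98 and 1.92 CPM in FW and at 10.4, 18.3, 15.6 and 11.2 CPM in SW. Every SW library was far above every FW library, with means of 2.71 ± 0.891 and 13.9 ± 3.75 CPM. The log2 fold change was 2.0 ± 0.36 (limma adjusted p = 0.0022).

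Among the genes that fell, AGAP003269 was at 34.4, 54.7, 62.2 and 69.6 CPM in FW and at 15.4, 19.1, 18.3 and 13.4 CPM in SW. FW replicate 1 was the lowest of its group and still lay above all SW libraries. The means were 55.2 ± 15.2 and 16.5 ± 2.63 CPM, and the log2 fold change was -1.65 ± 0.19 (limma adjusted p = 1.8e-06). AGAP011426 was at 16.4, 14.9, 18.4 and 15.8 CPM in FW and at 6.5, 5.51, 4.42 and 6.59 CPM in SW. Both groups were tight and did not overlap, with means of 16.4 ± 1.46 and 5.75 ± 1.02 CPM. Its log2 fold change was -1.37 ± 0.16 (limma adjusted p = 1.8e-06).

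Both genes called at 500 CPM or more are named for that level, after their values were seen. AGAP008075 was at 690, 811, 628 and 618 CPM in FW and at 402, 493, 497 and 442 CPM in SW. No SW library reached the lowest FW library, and the log2 fold change was -0.58 ± 0.09 (limma adjusted p = 0.00021). AGAP012334 was at 718, 681, 616 and 645 CPM in FW and at 374, 403, 427 and 465 CPM in SW. The groups were again apart, with a log2 fold change of -0.67 ± 0.15 (limma adjusted p = 0.012), and this call was lost in 2 of 18 other settings. Both genes also fell in An. merus at 66 h, from 772 to 344 CPM for AGAP008075 and from 1199 to 420 CPM for AGAP012334.

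**Figure D2:**
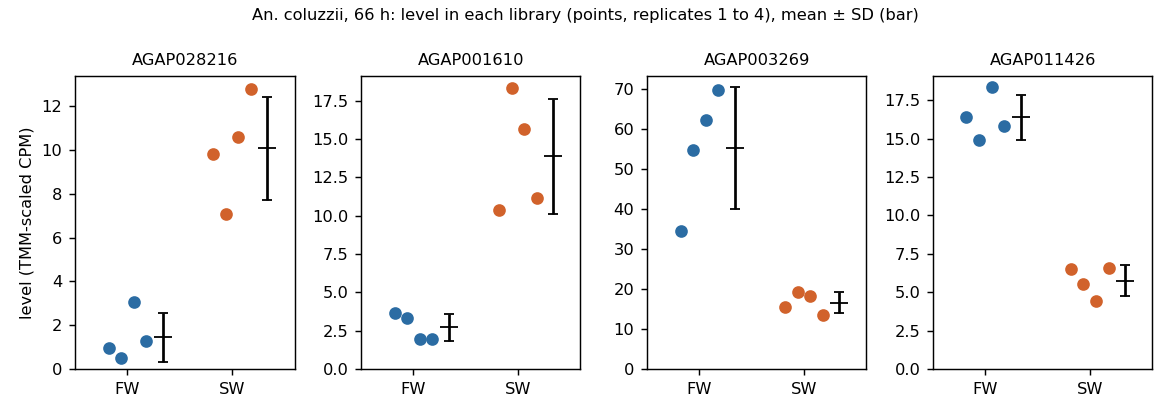
Levels of AGAP028216, AGAP001610, AGAP003269 and AGAP011426 in CPM, with a point for each of the 4 libraries of a group and a bar for the mean and SD. In An. coluzzii at 66 h the FW and SW points of each gene do not overlap, which was a condition for naming these genes.

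The second question was how far the older An. coluzzii larvae moved as An. merus of the same age did. The comparisons of SW with FW in the 2 species share no library, but they share the genes and, in the fit of all libraries, the estimate of error. In An. merus at 66 h, 6014 genes were called (57.2% of genes tested), 2714 higher (25.8%) and 3300 lower (31.4%). Of the 142 genes that rose in An. coluzzii, 127 had a positive fold change in An. merus and 113 were called higher there. Of the 93 that fell, 77 had a negative fold change in An. merus and 64 were called lower. These 177 genes were 75.3% of the An. coluzzii calls and 2.94% of the An. merus calls. The genes that rose in An. coluzzii had a median log2 fold change of 1.05 in An. merus, and those that fell had -0.78. Across the 10505 genes, which are not independent replicates, the fold changes of both species correlated at Pearson's r = 0.463 and Spearman's rho = 0.499. The standard deviation of the log2 fold changes over genes was 0.286 in An. coluzzii and 0.731 in An. merus.

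Sorted by their change in An. merus, the genes had median changes in An. coluzzii that followed the same order and were smaller. The 123 genes that rose more than 4-fold in An. merus (log2 above 2) had a median log2 fold change of 0.43 in An. coluzzii, with quartiles of 0.11 to 0.68, and 26 of them were called higher. The 624 genes with a log2 fold change of 1 to 2 in An. merus had a median of 0.23 in An. coluzzii, and 48 of them were called higher. In the mirrored range, -2 to -1, 735 genes had a median of -0.20, and 29 were called lower. The 40 genes below -2 in An. merus had a median of -0.32, and 5 of these were called lower. Genes with little change in An. merus, from 0 to 0.5, had a median of 0.06 in An. coluzzii.

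**Figure D3:**
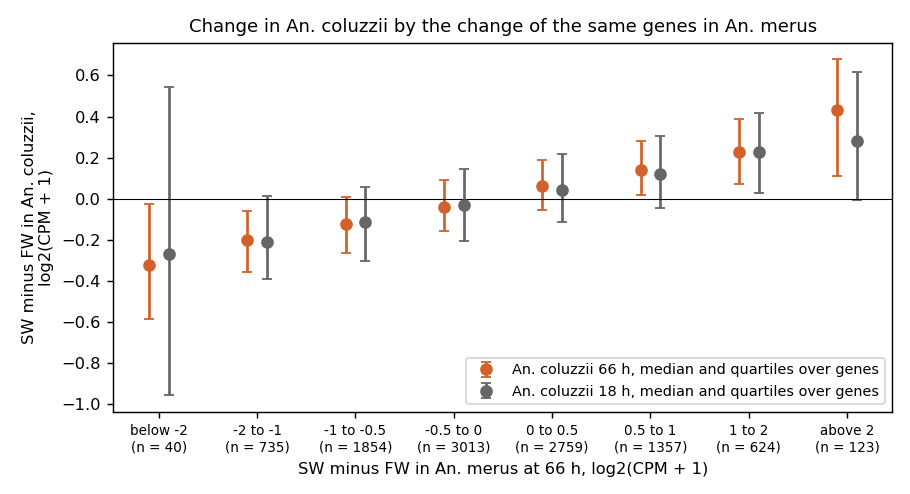
Genes were placed in 8 bins by their log2 fold change in An. merus at 66 h (horizontal axis), and the vertical axis gives the median and quartiles of their log2 fold change, SW minus FW, in An. coluzzii. The median at 66 h climbs from -0.32 in the lowest bin to 0.43 in the highest, a far smaller range than that of the bins.

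Most of this shift lay in genes that were not called one by one. Of the 740 genes called at least 2-fold higher in An. merus at 66 h, 84.9% had a positive fold change in older An. coluzzii, against 50.8% of all genes tested. The median was 0.24, with 74 called higher and 3 called lower. Among the 663 of them that were not called, 83.6% had a positive fold change and the median was 0.21. Of the 733 genes called at least 2-fold lower in An. merus, 15% had a positive fold change in An. coluzzii. The median was -0.22, with 34 called lower and 0 called higher. For the 699 of these that were not called the median was -0.20.

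The shift was visible in each library. The mean log2 level of the 740 genes was 4.31, 4.32, 4.31 and 4.24 in the FW libraries and 4.52, 4.61, 4.59 and 4.54 in the SW libraries. No FW library reached the lowest SW library, and the difference of means was 0.27. The mean log2 level of the 733 genes was 4.37, 4.36, 4.29 and 4.29 in FW and 4.12, 4.05, 4.11 and 4.11 in SW. The groups were again apart, by -0.23. These levels carry no test, because the genes were chosen from the An. merus results. In An. coluzzii at 18 h the 740 genes were at 3.93 to 4.11 in FW and 4.2 to 4.30 in SW, which do not overlap, and the 733 genes were at 3.91 to 4.13 in FW and 3.74 to 3.99 in SW, which do.

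**Figure D4:**
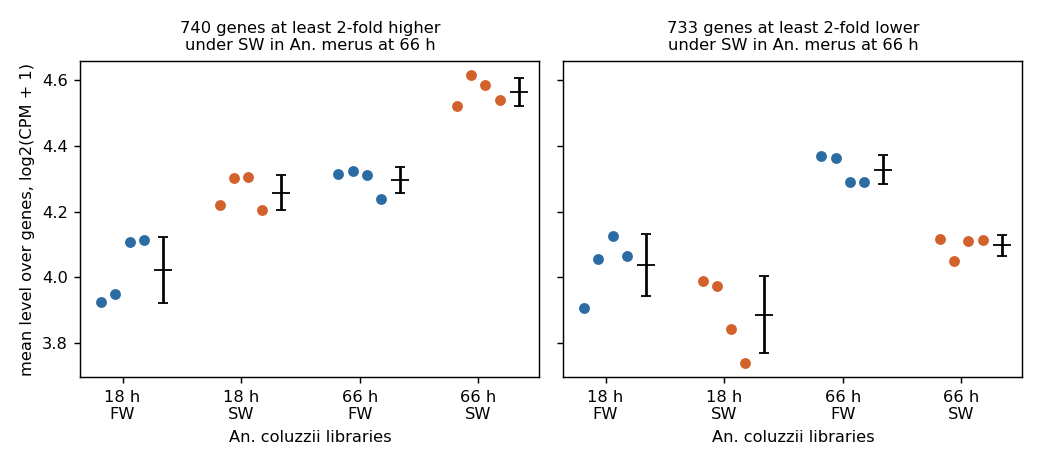
Mean log2(CPM + 1) of the 740 genes that rose and the 733 that fell at least 2-fold in An. merus at 66 h, with a point for each An. coluzzii library and a bar for the group mean and SD. At 66 h the SW libraries lie above all FW libraries for the 740 genes and below all of them for the 733.

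Size and direction were then tested between species by the interaction between species and water in older larvae. A difference was called for 3368 genes (32.1% of genes tested). Among the 235 genes called in An. coluzzii, it was called for 133. In 93 of these the change had the same sign in both species and was larger in An. merus, in 9 it had the same sign and was larger in An. coluzzii, and in 31 the signs differed. The other 102 all had the same sign in both species. Since the 235 genes were selected for their An. coluzzii change, this count is a description of them. AGAP003269 was among the genes that changed more in An. merus: it fell from 120 to 16.1 CPM there, and the difference between the log2 fold changes, An. coluzzii minus An. merus, was 1.18 ± 0.26 (limma adjusted p = 0.001). AGAP011426 fell more in An. coluzzii, and its difference was -0.66 ± 0.22 (limma adjusted p = 0.021). That difference lost its call with equal library sums (-0.47, adjusted p = 0.0964) and without SW replicate 3 (adjusted p = 0.0563). AGAP001610 rose from 4.18 to 43.9 CPM in An. merus, and its difference of -1.39 ± 0.51 (limma adjusted p = 0.039) lost its call in 9 of 17 other settings.

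Called in opposite directions in both species at 66 h were 8 genes, named here after their values were seen: 4 rose in An. coluzzii and fell in An. merus, and 4 did the reverse. The interaction was called for all 8 in the fit reported and in 17 other settings. Since the 8 were selected for called changes of opposite sign, a call of the difference was nearly fixed in advance and is no separate support. AGAP006441 was at 47.2, 39.5, 34.1 and 36.1 CPM in An. coluzzii FW and at 65.5, 67.5, 65.3 and 64.3 CPM in SW. The SW libraries were nearly equal and all above FW, with a log2 fold change of 0.74 ± 0.14 (limma adjusted p = 0.0034). In An. merus its mean was 96.8 CPM in FW and 70.7 in SW. AGAP001945 was at 21.9, 24.8, 17.8 and 17 CPM in FW and at 34.7, 38.2, 40.6 and 29.7 CPM in SW. It rose without overlap by 0.79 ± 0.14 on the log2 scale (limma adjusted p = 0.001), while in An. merus the mean went from 18.4 to 9.9 CPM. AGAP001941 (0.59 ± 0.15, limma adjusted p = 0.026) and AGAP005700 (0.31 ± 0.08, limma adjusted p = 0.026) complete the 4. The FW and SW libraries of AGAP001941 overlapped, and both calls were lost in 8 of 18 other settings, the 8 libraries alone among them.

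Of the 4 genes that fell in An. coluzzii and rose in An. merus, AGAP005795 had the largest change in An. coluzzii. It was at 18.8, 38.7, 24.9 and 27.6 CPM in FW and at 8.35, 11.2, 11.9 and 12 CPM in SW. The groups did not overlap, and the log2 fold change was -1.23 ± 0.22 (limma adjusted p = 0.002). In An. merus the mean went from 45.5 to 139 CPM, and the difference between the log2 fold changes was -2.89 ± 0.32 (limma adjusted p = 9.4e-08). AGAP013429 was at 42.3, 36.7, 49.6 and 46.1 CPM in An. coluzzii FW and at 29.3, 29.1, 29.3 and 26.9 CPM in SW. Its groups did not overlap either, with a log2 fold change of -0.58 ± 0.15 (limma adjusted p = 0.036), and in An. merus the mean went from 10 to 40.3 CPM. AGAP005944 (-0.75 ± 0.20, limma adjusted p = 0.035) and AGAP007572 (-0.51 ± 0.12, limma adjusted p = 0.023) complete these 4. Of 18 other settings, the An. coluzzii call was lost in 9 for AGAP013429, 10 for AGAP005944 and 7 for AGAP007572. The calls of AGAP006441, AGAP001945 and AGAP005795 passed in all 18.

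**Figure D5:**
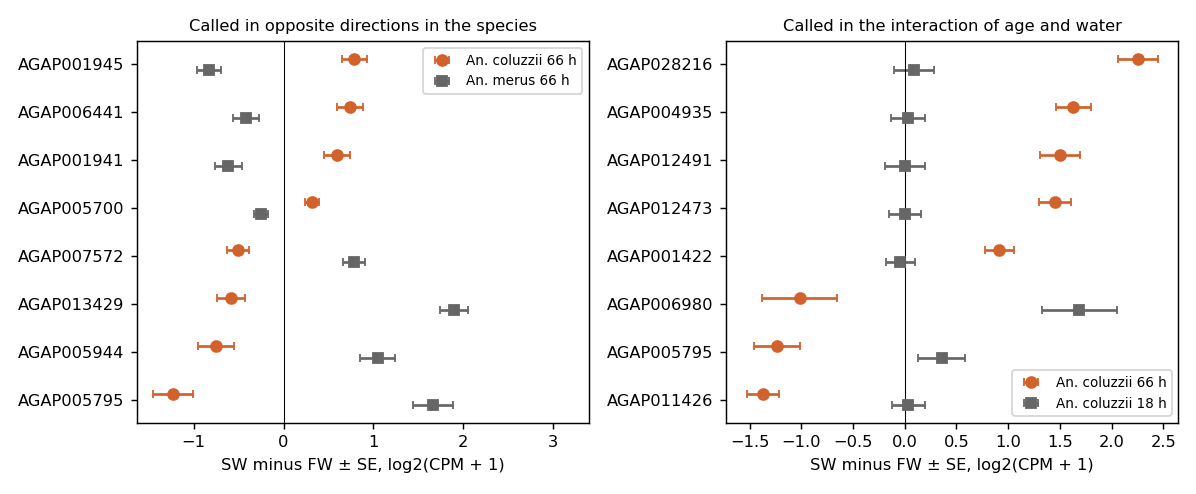
Log2 fold changes, SW minus FW, with bars for the standard error. The genes called in opposite directions in An. coluzzii and An. merus at 66 h lie on both sides of 0, and the genes whose response was called different with age have values near 0 at 18 h except AGAP005795 and AGAP006980.

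The third comparison set the older larvae beside larvae of the same species exposed from 18 h after hatching. At 18 h, 867 genes were called (8.25% of genes tested), 494 higher (4.7%) and 373 lower (3.55%). Of the 142 genes that rose at 66 h, 123 had a positive fold change at 18 h and 45 were called higher. Of the 93 that fell, 84 had a negative fold change and 38 were called lower. None of the 235 was called in the opposite direction. These 83 genes were 35.3% of the calls at 66 h and 9.57% of the calls at 18 h. The genes called at 66 h had smaller changes at 18 h, with medians of 0.33 and -0.36, and 202 of the 235 had their larger change at 66 h, the age at which they were selected. Across all genes the fold changes of the 2 ages correlated at Pearson's r = 0.251 and Spearman's rho = 0.373.

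A difference between the ages in the response of An. coluzzii (an interaction between age and water) was called for 8 genes (0.0762% of genes tested), with 977 genes at an unadjusted p below 0.05. Of these 8, named after their values were seen, 7 were also called at 66 h: AGAP028216, AGAP011426, AGAP001422, AGAP004935, AGAP005795, AGAP012473 and AGAP012491. AGAP011426 held in all 18 other settings. Its mean was 4.46 CPM in FW and 4.63 in SW at 18 h, so that it was lower in younger larvae and differed little between waters there. The difference between the log2 fold changes, 66 h minus 18 h, was -1.41 ± 0.22 (limma adjusted p = 0.0013). AGAP004935 was at 9.32, 8.6, 5.59 and 9.61 CPM in FW and at 20.8, 38.5, 25.1 and 27.2 CPM in SW at 66 h. All SW libraries were above FW, and the log2 fold change was 1.63 ± 0.17 (limma adjusted p = 6.8e-07). At 18 h its means were 7.09 and 7.32 CPM, and in An. merus at 66 h they were 8.03 and 9.95 CPM (limma adjusted p = 0.16). Its age interaction, 1.6 ± 0.24 (limma adjusted p = 0.001), was lost in 3 of 18 other settings. Its difference from An. merus was 1.35 ± 0.24 (limma adjusted p = 7.9e-05).

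AGAP001422 was at 13.2, 9.11, 9.01 and 9.24 CPM in FW and at 18.4, 18.4, 20.2 and 22.4 CPM in SW. The groups did not overlap, and the log2 fold change was 0.91 ± 0.14 (limma adjusted p = 2e-04). Its means at 18 h were 7.38 and 7.11 CPM, and its age interaction was lost in 14 of 18 other settings. The age interaction of AGAP005795 was lost in 12 of 18. AGAP028216 had 1 read in all of FW and 3 in all of SW at 18 h, so its level there was at the limit of detection. Its age interaction was 2.17 ± 0.28 with limma (adjusted p = 0.00011), and edgeR and DESeq2 on the recovered reads gave adjusted p of 0.986 and 0.999. The eighth gene, AGAP006980, had 17, 2, 12 and 11 reads in FW and 1, 2, 2 and 1 in SW at 66 h, a log2 fold change of -1.02 ± 0.36 that did not pass (limma adjusted p = 0.14) but was called with edgeR and DESeq2. At 18 h it rose from 0.411 to 3.92 CPM (limma adjusted p = 0.0063), so that the difference between the ages was -2.70 ± 0.51 (limma adjusted p = 0.021). That difference was lost in 4 of 17 other settings.

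AGAP012473 and AGAP012491 had reads in older An. coluzzii alone: no An. merus library and no 18 h library held any. AGAP012473 had 14, 3, 13 and 30 reads in FW and 42, 123, 59 and 61 in SW, which is 1.65, 0.759, 2.34 and 2.75 CPM against 7.8, 7.7, 5.01 and 6.19 CPM. The groups did not overlap, and its log2 fold change was 1.46 ± 0.16 (limma adjusted p = 7.9e-07, or 0.014 on the 8 libraries alone). AGAP012491 had 14, 5, 21 and 18 reads in FW and 38, 187, 46 and 85 in SW. Its lowest SW level, 3.91 CPM, was close to its highest FW level, 3.79 CPM, and its log2 fold change was 1.5 ± 0.19 (limma adjusted p = 2e-05, or 0.046 on the 8 libraries alone, and 0.073 with edgeR). For both genes the 24 libraries at 0 enter the estimate of error in the fit of all libraries, so the smaller p-values are too small. With no reads at 18 h or in An. merus there is no response to compare, and the calls of both genes in the interactions with age and species restate their change at 66 h. With edgeR and DESeq2 neither gene was called in these interactions, and the age interaction was lost in 4 of 17 other settings for AGAP012473 and in 5 for AGAP012491. Over the 59263853 reads of An. coluzzii at 18 h, a count of 0 allows a level of up to 0.0395 CPM (3 reads, counting error only). The corresponding limit over the 95985301 reads of An. merus at 66 h is 0.0408 CPM. Both limits apply to counted reads, and how well An. merus reads of these genes could be aligned is not known.

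Set against both other ages and species, 64 of the 235 genes were called in the same direction in all 4 comparisons of SW with FW. In An. merus at 18 h, 5430 genes were called (51.7% of genes tested, both directions together), 2643 higher and 2787 lower. Of the 235, 170 were called in the same direction there, which is 72.3%. In the opposite direction, 2 that rose here were called lower there and 10 that fell here were called higher. No call in any of the other 3 comparisons was made for 17 of the 235, of which 11 rose and 6 fell. The lack of a call elsewhere does not by itself show a difference. The interaction test called a difference from An. merus at 66 h for 14 of these 17, AGAP012473 and AGAP012491 among them. Since the 17 were selected for a call here and none in An. merus, such a call was favoured in advance. It is no separate support, and for AGAP012473 and AGAP012491, without reads in An. merus, it shows no difference in response. The 7 genes called in the interaction with age were 2.98% of the 235.

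The called genes were also placed by how they differed with age in FW An. merus. Those libraries do not enter the SW minus FW difference of An. coluzzii. They do enter its estimate of error in the fit of all libraries, so the age classes and the calls are not independent. Genes higher at 66 h than at 18 h made up 2830 of the genes tested (26.9%). They held 55 of the 142 genes that rose (38.7%) and 41 of the 93 that fell (44.1%), and 3.39% of them were called. Genes higher at 18 h made up 2509 (23.9%), and they held 14 of the genes that rose (9.86%) and 19 of those that fell (20.4%). Of these genes 1.32% were called. Among the 5166 genes called in neither direction with age, 2.05% were called. These shares carry no test, and level was not matched between the classes.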

How the data were processed

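PolyA libraries (Illumina TruSeq RNA v2, which does not mark strand, so reads of overlapping antisense genes are mixed) were made from pools of whole larvae, per the labels' protocols. The deposited table holds a gene-level signal, which the authors name CPM after TMM (trimmed mean of M values) scaling, for 11025 identifiers and 32 libraries. Trimmomatic, Bowtie2, TopHat2, HTSeq and edgeR are named in the submitters' processing notes without role or version. The filter on genes, genome build and annotation are not given in the sources used here. How reads of near-identical gene copies were counted is likewise unknown.

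The planned test assumed CPM and was kept for this signal. Values were fitted as log2(CPM + 1), with a pseudocount of 1 that understates the changes of low genes, by limma 3.58.1 (trend and robust options) in R 4.3.3. The model had 8 group means over 32 libraries (24 residual degrees of freedom). Genes whose mean reached 1 CPM were tested (10505, leaving out 520), two-sided, with Benjamini-Hochberg adjustment over all of them in each comparison, and called at an adjusted p below 0.05. The fit was tried on simulated counts in which 200 of 10505 genes were changed, all with a mean of at least 5 CPM. Each gene's spread beyond counting noise was estimated on the 8 libraries and given to all 32. It recovered 35.8% of 1.5-fold, 91% of 2-fold and 100% of 4-fold changes. Of its calls 9.58% were false, more than the 0.05 threshold aims at. That share was 6.62% for limma on the 8 libraries, 5.03% for edgeR and 11.4% for DESeq2. In the data the spread can differ between groups, so these shares need not hold for the calls reported here. Each library's values step by the worth of 1 read, and 100% came out whole within 0.01 reads in 31 libraries. In FW replicate 1 of An. merus at 18 h the size of that step was less certain, and it was used in no count test. Recovered reads of 16 libraries at a time served edgeR 4.0.16 and DESeq2 1.42.0 as alternatives. These were the An. coluzzii libraries for the SW change and the age interaction, and the 66 h libraries for the species interaction. Other alternatives were pseudocounts of 0.5 and 4, other filters, equal library sums, fewer libraries in the fit, thinning to 3769859 reads and leaving out each library. Library totals were 3769859 to 16633623 reads. Pairs of replicates in the 2 groups had a chi-square of 5.89 to 33.2 per degree of freedom (genes holding 20 or more reads in a pair; sampling noise alone gives about 1), so none was taken as 1 library deposited again.

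The comparison, gene lists and tests were chosen with earlier results of these data known. Genes were named by rule as the 2 highest and 2 lowest fold changes among called genes with at least 5 CPM in the higher group and no overlap of libraries, and all others were named after their values were seen. Figures were drawn with matplotlib 3.10.9.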

Additional observations from a re-analysis of the deposited data

Results flagged for a closer look

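Values stood apart from their group by Dixon's criterion at the 95% level, 5 of 46 groups of 4 libraries examined, where chance flags about 1 in 20 groups. AGAP013429 was at 26.9 CPM in SW replicate 4, below 3 libraries that were nearly equal. AGAP001422 was at 13.2 CPM in FW replicate 1, and AGAP012491 was at 3.79 CPM in FW replicate 3, each above the rest of its group. The mean log2 level of the 740 genes that rose in An. merus was 4.24 in FW replicate 4, lower than in the other FW libraries. The mean log2 level of the 733 genes that fell in An. merus was 4.05 in SW replicate 2, lower than in the other SW libraries.

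The response to SW differed between species at 66 h by limma's test of the interaction for 14 of the named genes with reads in both species, given here as the log2 fold change of An. coluzzii minus that of An. merus. Positive differences were 1.18 for AGAP003269, 1.21 for AGAP001941, 1.62 for AGAP001945, 0.57 for AGAP005700, 1.16 for AGAP006441, 1.35 for AGAP004935, 0.58 for AGAP008075 and 0.82 for AGAP012334. Among these, AGAP003269, AGAP008075 and AGAP012334 fell in both species, and fell less in An. coluzzii. The difference was -1.39 for AGAP001610, -0.66 for AGAP011426, -2.89 for AGAP005795, -1.80 for AGAP005944, -1.29 for AGAP007572 and -2.48 for AGAP013429. For the genes selected because they were called in opposite directions, a call of the difference was nearly fixed in advance.

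Differences between ages in An. coluzzii were called by limma's test of the interaction, given as the log2 fold change at 66 h minus that at 18 h. They were 2.17 for AGAP028216, 0.96 for AGAP001422 and 1.6 for AGAP004935. For AGAP011426 the difference was -1.41, for AGAP005795 -1.59 and for AGAP006980 -2.70. Of these calls only that of AGAP011426 held in every other setting. Those of AGAP001422 and AGAP005795 were lost in 14 and 12 of 18 settings, and AGAP028216 was not called with edgeR or DESeq2. AGAP012473 and AGAP012491 also passed both tests with limma, at 1.46 and 1.5. They had no reads in An. merus and none at 18 h, so these values restate their change in older An. coluzzii and show no difference in response.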

How the results depend on the processing

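The 235 calls (142 higher, 93 lower) became 87 (49 and 38) in a limma fit of the 16 An. coluzzii libraries. With edgeR on the same 16 libraries they became 98 (53 and 45). In the fit of all libraries after thinning to the lowest depth they became 142 (85 and 57). On the 8 libraries alone 75 were higher. Leaving out 1 library gave 110 to 183 calls, 69 to 121 higher and 41 to 75 lower. The 8 calls of the age interaction became 14 with a pseudocount of 4, 2 with a mean of at least 5 CPM, 3 on the libraries compared alone, 3 on the An. coluzzii libraries, 2 with edgeR, 18 with DESeq2 and 5 after thinning, and 5 to 12 without 1 library. The 3368 calls of the species interaction stayed within 1.5 times that count in every setting run, 3129 to 3246 without 1 library. With equal library sums the share of these differences that were positive went from 54.7% to 78.6%, and their median over all genes from 0.06 to 0.28, so directions between species are relative to the authors' scaling. The difference between SW and FW in mean log2 level of the 740 minus the 733 genes was 0.498, 0.407 with a pseudocount of 4 and 0.466 to 0.519 without 1 library; these settings were added after seeing the data. The species interaction of AGAP028216, 0.58 with limma (adjusted p = 0.11), turned to -2.16 with edgeR and -2.48 with DESeq2 (adjusted p = 0.0449 and 0.0359), on 3 reads in An. merus FW. The causes of these changes were not tested.

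Of the other values of single genes under other settings, 717 kept their direction and side of the threshold, 104 lost a call and 10 gained one. No paired analysis was possible because the labels number the libraries without sharing a number between groups. Read depth limits statements on genes with few reads, and gene functions, tissue markers and sequences were not examined.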
